A study of Mus musculus with 18 samples.

Results

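Cholesterol leaves a cell through ABC transporters or is stored in it as cholesteryl ester, and the liver X receptors (LXR) govern the transcription of several genes on both routes. The 10 genes described here were picked by symbol for that role: the receptors Nr1h3 and Nr1h2, the exporters Abca1, Abcg1, Abcg5 and Abcg8, the further LXR targets Mylip and Lpcat3, and the esterifying enzymes Soat1 and Soat2. All 10 were among the 35441 genes of the count table, and all 10 passed the minimum of 100 reads summed over the mice that left 14533 genes for testing.

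Bulk RNA was sequenced from the livers of 18 mice, 3 in each of 6 groups. WT mice, Lipa-/- mice and Lipa-/- mice given the vector rAAV8.hAAT.LIPA (called treated from here on) are labelled 3 months or, as other animals, 8 months. The series design text and the paper give these times as 12-weeks and 34-weeks post-injection. The paper states that most untreated Lipa-/- mice of the longer follow-up were killed earlier, on meeting ethical endpoints, and the age at which each 34-week Lipa-/- liver was taken is not given in the sources used here. WT and untreated Lipa-/- mice carry no treatment in the labels. Per the study's methods, the Lipa-/- allele lacks exon 4 of the gene for lysosomal acid lipase, removed by a Cre recombinase under a CMV promoter, the mice were males on a C57BL/6N background, and the vector was given into the tail vein at 10 to 12 weeks of age at 3e+12 vector genomes per kg. The vector carries human LIPA cDNA behind the human alpha-1-antitrypsin promoter, which is active in hepatocytes, so the other cells of a treated liver were not meant to make the enzyme themselves. Every 34-week mouse shares 1 study code and no 12-week mouse has it, so time and study code cannot be told apart. Lipa-/- mouse 5 of 12-weeks has a code that no other mouse has.

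LXR are nuclear receptors that bind oxysterols and desmosterol, pair with a retinoid X receptor (RXR) and sit on DNA at paired half-sites. Lysosomal acid lipase frees cholesterol from the cholesteryl esters that reach the lysosome, and a cell that then holds more free sterol is known to export it through ABCA1 and ABCG1 to apolipoprotein A-I and HDL, or, in hepatocytes, through the ABCG5 and ABCG8 pair into bile. Sterol O-acyltransferases turn the remainder back into ester, with SOAT1 being the form of macrophages and most tissues and SOAT2 that of hepatocytes and enterocytes in mice.

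The classical LXR element is a direct repeat of the half-site AGGTCA with 4 bases between its copies, called DR4 (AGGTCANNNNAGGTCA). Both strands of the 250 bases before each start site were searched for it in GRCm39, taking the canonical transcript of each gene. With up to 2 mismatches in the 12 fixed letters, 0 of the 10 genes and 2.43% of 21770 promoters held a match. With up to 3 mismatches, a limit chosen after seeing that result, 3 of the 10 held one, Abca1 among them, beside 18.02% of all promoters. The half-site alone, which every full repeat contains, was found before Soat2 only and before 13.124% of promoters. The Abca1 promoter is known for an LXR element close to its start, and its match lay on the opposite strand, 62 to 47 bases before the start. Its window is shown because it holds the letters closest to DR4 before Abca1, the exporter compared with Abcg1. It is printed on the strand of the gene with the match in capitals, from chr4:53159901-53160150 (minus strand).
Abca1: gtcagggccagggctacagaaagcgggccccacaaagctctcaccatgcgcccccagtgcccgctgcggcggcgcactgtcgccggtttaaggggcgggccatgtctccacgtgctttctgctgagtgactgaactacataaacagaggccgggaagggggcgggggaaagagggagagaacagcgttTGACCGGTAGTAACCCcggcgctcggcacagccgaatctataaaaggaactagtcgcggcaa
Abcg5 and Abcg8 lie head to head on chromosome 17, with Abcg5 on the minus strand and Abcg8 on the plus strand. Their canonical start sites leave only 12 bases between them, chr17:84990440-84990451, here on the plus strand with no part in capitals.
Abcg5-Abcg8: ttggccaacgat
Other annotated transcripts of this pair overlap, and the sources used here do not say whether the libraries kept the strand, so reads over the shared stretch may have been split between both genes.

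Depth was similar in all livers, at 17527848 to 25833134 reads assigned to genes, and was lowest in treated mouse 10 of 12-weeks. TMM scaling factors went with the groups. They were 0.587 (mouse 10), 0.759 and 0.627 in treated livers of 12-weeks and 1.16 to 1.69 in Lipa-/- livers. In WT livers and treated livers of 34-weeks they were 0.806 to 1.07. Murine Lipa fell by 3.25 on the log2 scale in Lipa-/- livers at 12-weeks and by 4.01 at 34-weeks (edgeR quasi-likelihood test, adjusted p = 3.62e-08 and 1.23e-08), and human LIPA reads were at 523 to 2746 CPM in the 6 treated livers and at no more than 0.906 CPM in the other 12. Hepatocyte markers were abundant in every liver, with a summed level over 7 genes of 50698 to 67455 TPM in WT, 45479 to 57291 in Lipa-/- and 20056 to 58501 in treated livers of 12-weeks, and of 56194 to 71837, 30955 to 57701 and 54590 to 73053 TPM at 34-weeks. Between Lipa-/- and WT livers, 2 of these 7 were called lower at 12-weeks and 4 of the 7 at 34-weeks, by the thresholds given below. At either time 0 were called higher, though 1 was higher by adjusted p alone at 34-weeks. Of all tested genes, 29.3% were called at 12-weeks and 36.3% at 34-weeks. The summed level of 14 macrophage and Kupffer cell markers was 135 to 301 TPM in WT livers of 12-weeks and 271 to 540 TPM at 34-weeks, 3704 to 7664 and 3427 to 6820 TPM in Lipa-/- livers, and 592 to 1213 and 370 to 1027 TPM in treated livers. Of these 14 markers, 11 were called higher and 1 lower in Lipa-/- than in WT livers at 12-weeks (29.3% of all genes called). At 34-weeks 9 were called higher and 2 lower (36.3% of all genes called). The sums of 5 other cell type lists also lay above WT in every Lipa-/- liver of each time, while that of 7 endothelial markers was lower, 29.2 to 48.2 against 59.8 to 80.0 TPM at 12-weeks, and overlapped at 34-weeks, 41.8 to 92.7 against 82.5 to 97.3 TPM. For 6 cholangiocyte markers they were 400.3 to 2366 TPM at 12-weeks against 16.8 to 31.3 in WT, and 1193 to 2619 against 23.8 to 45.4 at 34-weeks. For 6 neutrophil markers they were 421 to 5074 against 2.89 to 6.53 and 512 to 1424 against 4.13 to 15.1 TPM, with Ly6g at 0 in WT livers. The 8 stellate cell and myofibroblast markers summed to 275 to 460 against 46.2 to 83.1 and 498 to 1059 against 87.6 to 122 TPM. The 7 T and NK cell markers gave 11.6 to 14.2 against 1.35 to 3.75 and 9.85 to 21.1 against 1.74 to 4.94 TPM, and the 5 B and plasma cell markers 13.9 to 58.4 against 1.81 to 2.97 and 36.2 to 52.8 against 3.46 to 19.7 TPM. Markers called higher and lower at 12-weeks, then 34-weeks, were 4 and 0, then 6 and 0, of 6 for cholangiocytes. They were 6 and 0, then 5 and 0, of 6 for neutrophils, and 4 and 1, then 5 and 2, of 8 for stellate cells. For T and NK cells they were 4 and 0, then 5 and 0, of 6 tested. For B and plasma cells they were 2 and 0, then 1 and 1, of 5 (29.3%, then 36.3%, of all genes called). The sums carry no TMM factors, and a few abundant genes can dominate them. In a bulk sample, fewer cells of a type and less RNA per cell cannot be told apart.

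A gene was called changed at an absolute log2 fold change over 1 with an adjusted p under 0.05 (edgeR quasi-likelihood test, Benjamini-Hochberg over all tested genes). Against WT, 2 of the 10 genes were called in Lipa-/- livers at 12-weeks, where 29.3% of all tested genes were called, and 4 at 34-weeks, where 36.3% were. Treated livers differed from WT in 3 of the 10 at 12-weeks (25.5% of all genes) and in 0 of the 10 at 34-weeks (0.22% of all genes). That count of 0 stands beside 2 genes with an unadjusted p under 0.05, and DESeq2 also called 0. Treated and untreated Lipa-/- livers differed in 7 of the 10 at 12-weeks (41.5% of all genes) and in 4 at 34-weeks (31.5% of all genes). By adjusted p alone, the counts in the same order were 2, 5, 4, 0, 8 and 4 of the 10, beside 39.2%, 47.3%, 36.8%, 0.22%, 54.3% and 41.1% of all genes.

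**Figure D1:**
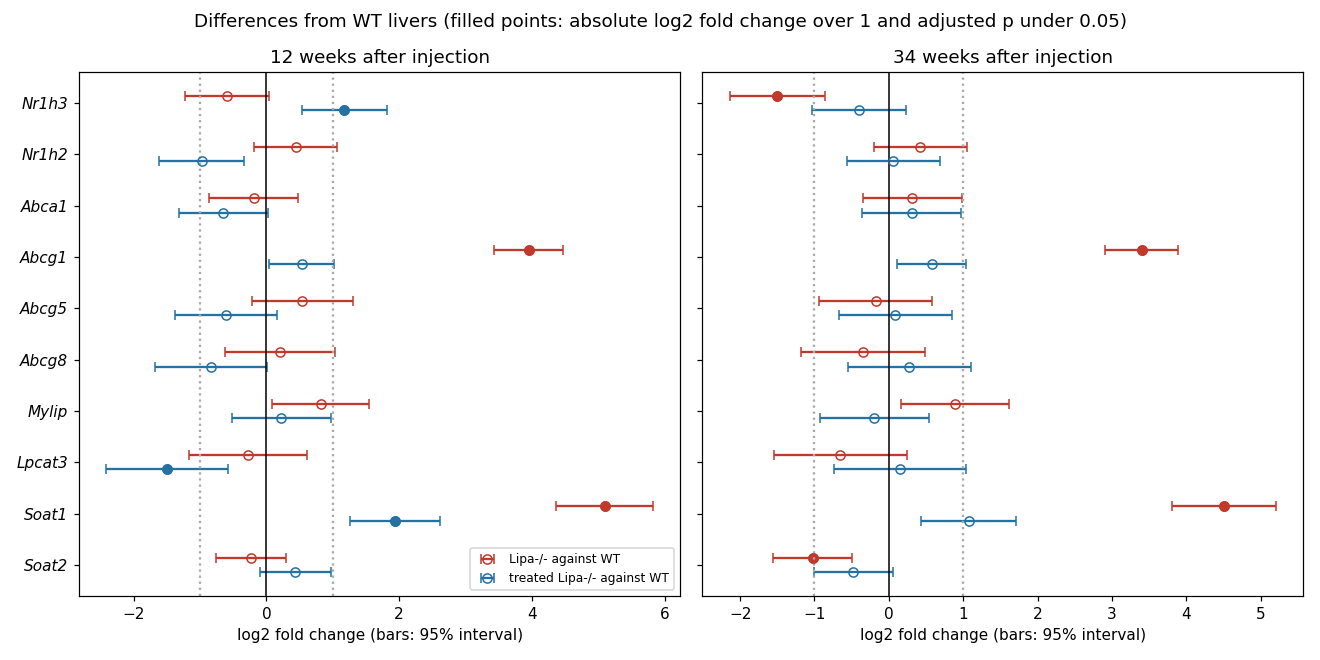
Log2 fold change of each gene against WT livers at 12-weeks and 34-weeks post-injection, for Lipa-/- mice (red) and treated Lipa-/- mice (blue). Points are edgeR estimates, bars are 95% intervals, filled points were called, and dotted lines mark an absolute log2 fold change of 1. Soat1 at 5.09 and 4.51 and Abcg1 at 3.95 and 3.40 stand far to the right of the other genes in Lipa-/- livers.

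Those counts depend on how libraries are scaled. With total counts in place of TMM factors, the log2 fold change of the median gene moved by 0.47 and 0.63 in Lipa-/- against WT livers at 12- and 34-weeks, by -0.40 and 0.09 in treated against WT, and by -0.87 and -0.54 in treated against untreated Lipa-/- livers. Of all calls, the higher ones went from a share of 69.1% to 87.2%, 56.6% to 81.8%, 53.1% to 24.4%, 59.4% to 70.8%, 38.96% to 8.92% and 40.8% to 18.5% in the same order. For the 10 genes, the calls with total counts were 3 higher and 0 lower, 4 higher and 0 lower, 1 higher and 4 lower, 0 and 0, 0 higher and 8 lower, and 0 higher and 3 lower. None of the calls described here turned its direction under either scaling.

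Nr1h3, which encodes LXR alpha, the liver-rich receptor, was lower in Lipa-/- than in WT livers at 34-weeks and higher in treated livers at 12-weeks. Its position is chr2:91014394-91033417 on the minus strand. In WT livers it stood at 144, 148 and 100.5 CPM (counts scaled to library size with TMM factors) at 12-weeks and at 206, 97.6 and 96.6 CPM at 34-weeks. Values in Lipa-/- livers were 95.8, 78.4 and 85.1 CPM at 12-weeks and 38.0, 49.6 and 54.0 CPM at 34-weeks. Every Lipa-/- liver lay below every WT liver of its own time. Treated livers had 403, 233 and 247 CPM at 12-weeks, all above the WT livers, and 103, 119.8 and 79.6 CPM at 34-weeks, within or just below the WT range.

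The 34-week difference of Nr1h3 between Lipa-/- and WT was 2.83-fold (log2 fold change -1.50 ± 0.31 SE, adjusted p = 0.000687), while the 12-week one, -0.60 with a 95% interval of -1.23 to 0.03, did not pass (adjusted p = 0.126). With total counts the 34-week value was -0.82 and with limma on TPM -0.75, short of the fold threshold. Treated livers at 12-weeks were 2.25-fold above WT (log2 fold change 1.17 ± 0.30 SE, adjusted p = 0.00979). That call was lost with total counts (0.75) and with limma on TPM (0.49, adjusted p = 0.0519). Without treated mouse 10 that value was 0.80 (adjusted p = 0.0773) and without WT mouse 3 it was 1.01 (adjusted p = 0.0565). At 34-weeks the treated livers differed from WT by -0.40, with a 95% interval of -1.03 to 0.23. Against untreated Lipa-/- livers, treated ones were 3.41-fold higher at 12-weeks (adjusted p = 0.000217) and 2.14-fold higher at 34-weeks (adjusted p = 0.00772). The 12-week log2 fold change of 1.77 was 0.87 with total counts and 0.62 with limma on TPM, and was not called with either. The 34-week one of 1.10 lost its call with upper quartile factors (0.98), total counts (0.57, adjusted p = 0.055) and limma on TPM (0.56), and without treated mouse 12 (0.93) or Lipa-/- mouse 4 (0.96).

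Nr1h2 encodes LXR beta, the form found in most tissues, and lies at chr7:44199036-44203406 on the minus strand. It was at 25.7, 30.0 and 30.8 CPM in WT livers of 12-weeks and at 26.5, 31.4 and 31.4 CPM in those of 34-weeks. The Lipa-/- livers stood at 39.1, 37.9 and 40.6 CPM at 12-weeks and 39.9, 40.6 and 39.3 CPM at 34-weeks. All 6 Lipa-/- livers were above all 6 WT livers, but the log2 fold changes, 0.44 with a 95% interval of -0.18 to 1.07 and 0.42 with one of -0.20 to 1.05, did not pass (adjusted p = 0.253 and 0.255). With total counts the 34-week value reached 1.04 and was called. Treated livers of 12-weeks had 5.54, 17.6 and 20.7 CPM, all below the other groups, and those of 34-weeks had 31.8, 27.5 and 33.9 CPM. At 12-weeks the treated livers were 2.67-fold below untreated Lipa-/- livers (log2 fold change -1.42 ± 0.30 SE, adjusted p = 0.00108). Against WT, the difference of -0.97 passed by p alone (adjusted p = 0.0208), and it passed the fold threshold too in 8 of 14 alternatives, among them the fits without WT mouse 1 (-1.05), treated mouse 11 (-1.13) or treated mouse 12 (-1.37).

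The balance of both receptors was compared as the ratio of their TPM values, which are per transcript length, within each liver. The TPM of Nr1h3 was 3.13 to 7.95 times that of Nr1h2 in WT livers and 0.922 to 2.58 times in Lipa-/- livers, with no overlap between the 6 livers of either kind. The log2 ratio was lower by 1.48 on average (exact permutation test within time points, two-sided, p = 0.005, the smallest that its 400 arrangements allow, adjusted p = 0.0133 over 8 ratio tests). In treated livers of 12-weeks the ratio was 13.3, 13.5 and 76.1, the last in mouse 10, against 2.23 to 4.47 at 34-weeks. Over both times, treated and WT livers differed by 0.98 on the log2 scale (exact permutation p = 0.17, adjusted p = 0.194).

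**Figure D2:**
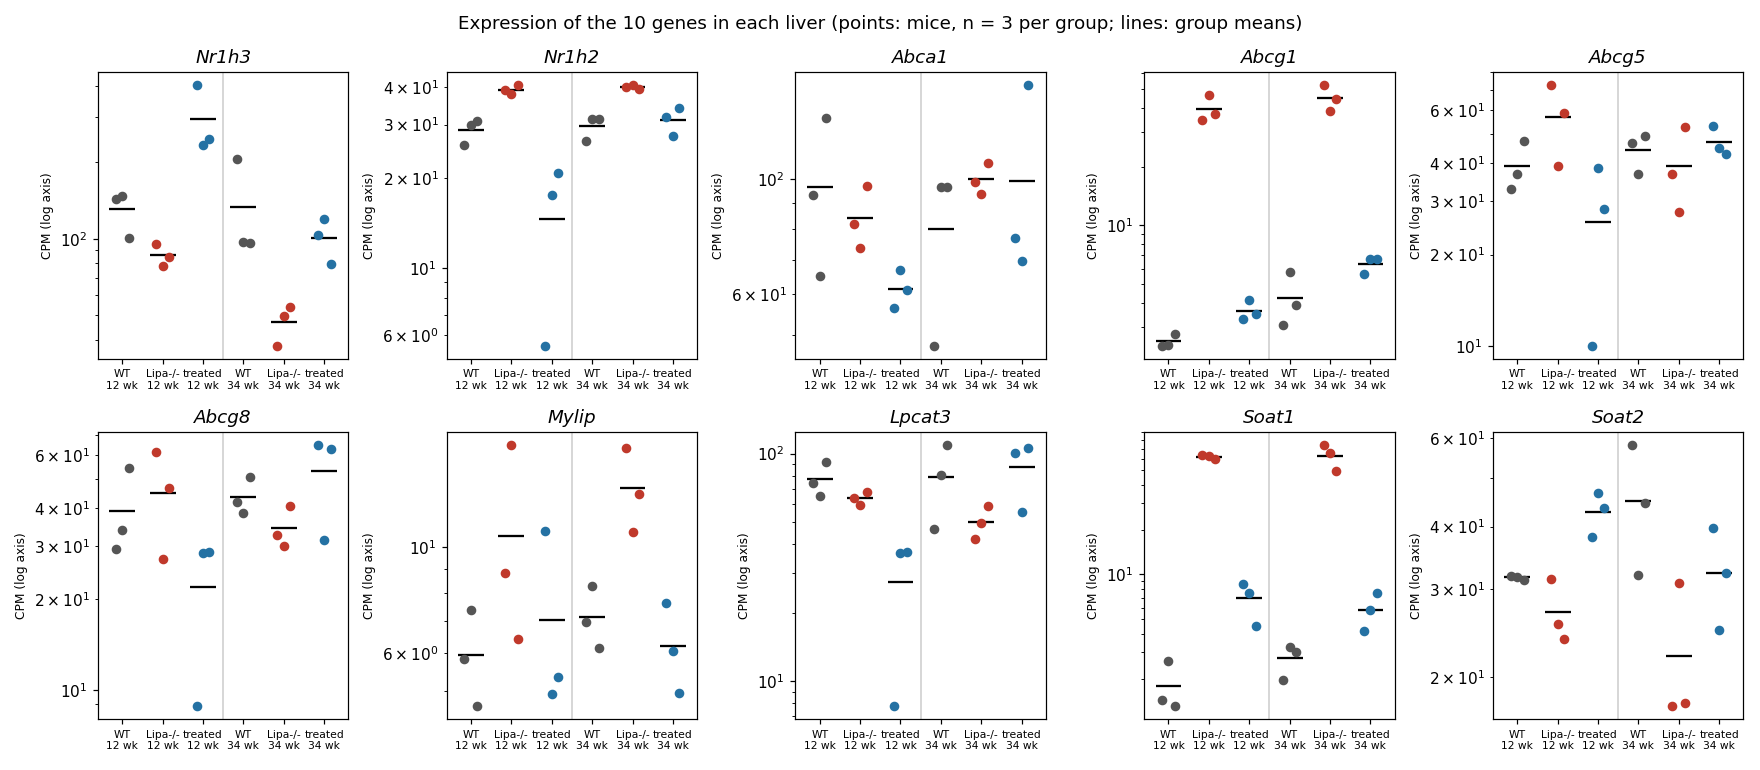
CPM of the 10 genes on log axes in each liver of the 6 groups, with mice as points (n = 3 per group) and group means as lines. In the Soat1 and Abcg1 panels all 6 Lipa-/- livers (red) stand above the other 12, and the treated 12-week mouse with the lowest Nr1h2, Abcg5, Abcg8 and Lpcat3 values is the one with the highest Nr1h3.

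Abcg1, the exporter of sterol to HDL that is abundant in macrophages, was one of the genes that rose most in Lipa-/- livers. It lies at chr17:31276649-31336969 on the plus strand. WT livers had 2.41, 2.44 and 2.77 CPM at 12-weeks and 3.07, 5.75 and 3.89 CPM at 34-weeks. In Lipa-/- livers it stood at 34.4, 46.4 and 37.0 CPM and at 52.4, 38.4 and 44.1 CPM. No Lipa-/- liver came near the WT range. The fold was 15.4 at 12-weeks (log2 fold change 3.95 ± 0.24 SE, adjusted p = 1.7e-08) and 10.6 at 34-weeks (3.40 ± 0.23 SE, adjusted p = 4.35e-08). Over 14 alternatives at each time it stayed between 3.81 and 4.42 and between 3.22 and 4.02, and was called in every one. The marker sums of macrophages, cholangiocytes, neutrophils, stellate cells, T and NK cells and B cells were higher in the same livers, and their part in this result was not tested.

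Treated livers had 3.30, 4.13 and 3.53 CPM of Abcg1 at 12-weeks and 5.63, 6.69 and 6.71 CPM at 34-weeks. These lay 10.7-fold and 7.08-fold below untreated Lipa-/- livers (adjusted p = 2.14e-07 and 3.42e-07). Against WT the log2 differences were 0.53, with a 95% interval of 0.03 to 1.03, and 0.58, with one of 0.11 to 1.04, and neither passed (adjusted p = 0.084 and 0.674). At 12-weeks all 3 treated livers were nonetheless above all 3 WT livers.

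Abca1, which hands cholesterol and phospholipid to apolipoprotein A-I, was not called with Abcg1 at either time. Its gene is at chr4:53030787-53159900 on the minus strand and carries the LXR-like match in the printed window. It stood at 93.0, 65.2 and 131 CPM in WT livers of 12-weeks and at 47.8, 96.4 and 96.5 CPM at 34-weeks. In Lipa-/- livers it had 81.9, 73.8 and 97.0 CPM and then 98.8, 93.6 and 107 CPM. The WT and Lipa-/- livers overlapped at both times. The log2 differences were -0.19 with a 95% interval of -0.86 to 0.47 at 12-weeks and 0.32 with one of -0.35 to 0.98 at 34-weeks (adjusted p = 0.662 and 0.433). Over the 14 alternatives the 34-week value ranged from 0.05 to 1.07, and the sign at 12-weeks was the opposite one with total counts, limma on TPM or without WT mouse 3 (0.26, 0.31 and 0.09). Treated livers had 56.5, 66.8 and 61.3 CPM at 12-weeks and 76.9, 69.4 and 152 CPM at 34-weeks, and differed from WT by -0.65 (95% interval -1.32 to 0.02) and 0.31 (-0.36 to 0.97).

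Within a liver, the TPM of Abca1 was 8.71 to 26.4 times that of Abcg1 in WT mice and 0.835 to 1.44 times in Lipa-/- mice. The log2 ratio fell by 3.59 (exact permutation test, p = 0.005, adjusted p = 0.0133), and no Lipa-/- liver overlapped a WT liver. Treated livers had ratios of 8.56 to 9.70 at 12-weeks and 5.66 to 12.6 at 34-weeks, on average 0.75 lower than WT on the log2 scale (exact permutation p = 0.02, adjusted p = 0.04). At 12-weeks, where WT livers had 14.9 to 26.4, the difference was -1.15 (exact permutation p = 0.1, the smallest possible), and at 34-weeks, where they had 8.71 to 13.8, it was -0.35 (exact permutation p = 0.4). The value over both times lost its call without any 1 of 7 mice, with values of -0.73 to -0.63: WT mice 1 and 3 of 12-weeks (-0.69 and -0.63), treated mice 10, 11 and 12 of 12-weeks (-0.72, -0.69 and -0.73), WT mouse 3 of 34-weeks (-0.69) and treated mouse 12 of 34-weeks (-0.67).

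Abcg5 and Abcg8 encode the partners of 1 transporter that moves sterol into bile. Their genes span chr17:84964851-84990494 and chr17:84983730-85007765. Abcg5 was at 33.0, 37.0 and 47.4 CPM in WT livers of 12-weeks and at 46.5, 36.8 and 49.3 CPM at 34-weeks. Lipa-/- livers had 72.6, 39.3 and 58.8 CPM and 36.8, 27.7 and 52.9 CPM, which overlapped WT at both times. Treated livers had 10.0, 38.7 and 28.2 CPM at 12-weeks and 53.0, 44.8 and 43.1 CPM at 34-weeks.

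Abcg8 varied much like its partner. It ranged from 29.4 to 54.2 CPM in WT livers over both times, from 27.1 to 61.5 CPM in Lipa-/- livers, and from 31.5 to 64.8 CPM in treated livers of 34-weeks. Treated livers of 12-weeks had 8.84, 28.5 and 28.6 CPM, and mouse 10 was again the lowest. Of the 45 pairs among the 10 genes, Abcg5 and Abcg8 followed each other most closely over the 18 livers, with a root mean square difference of 0.28 between their log2 CPM values after each was centred on its own mean.

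Neither gene passed the test between Lipa-/- and WT livers. The log2 differences of Abcg5 were 0.54 (95% interval -0.22 to 1.30) and -0.18 (-0.94 to 0.59), those of Abcg8 0.21 (-0.63 to 1.04) and -0.34 (-1.17 to 0.49). The treated livers of 12-weeks were 2.21-fold lower than untreated Lipa-/- livers in Abcg5 (adjusted p = 0.0151) and 2.05-fold lower in Abcg8 (adjusted p = 0.0381). Without treated mouse 10 these log2 differences went from -1.14 to -0.80 and from -1.03 to -0.70, and neither was called. Without Lipa-/- mouse 8 they were -0.93 and -0.75, and the Abcg8 call was also lost without Lipa-/- mouse 5 (-1.01, adjusted p = 0.0775). Both calls were lost when edgeR was fitted to only the groups compared (-1.11 and -0.999, adjusted p = 0.0732 and 0.104).

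The TPM of Abcg5 was 1.30 to 1.78 times that of Abcg8 in WT livers, and 1.45 to 2.25 times in Lipa-/- livers. The log2 ratio was 0.33 higher in the latter (exact permutation p = 0.025, adjusted p = 0.04), a shift of 1.25-fold whose livers overlapped with WT. It did not pass when counts were used in place of TPM (0.23, adjusted p = 0.0667), nor without WT mouse 3 of 12-weeks (0.26), Lipa-/- mouse 9 (0.29) or 5 (0.31) of 12-weeks, Lipa-/- mouse 4 (0.32) or 6 (0.29) of 34-weeks, or WT mouse 2 (0.32) or 3 (0.31) of 34-weeks. Treated livers differed from WT by 0.08 (exact permutation p = 0.735).

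Mylip encodes the ubiquitin ligase, also called IDOL, that marks LDL receptors for lysosomal breakdown, and lies at chr13:45543215-45565501 on the plus strand. It stood at 5.84, 7.37 and 4.66 CPM in WT livers of 12-weeks and at 6.96, 8.28 and 6.15 CPM at 34-weeks. Lipa-/- livers had 8.82, 16.3 and 6.42 CPM at 12-weeks, of which the last, mouse 5, lay among WT livers, and 16.1, 10.7 and 12.9 CPM at 34-weeks, all above WT. The 34-week difference passed by p alone (log2 fold change 0.89 ± 0.35 SE, adjusted p = 0.0426), and the 12-week one did not (0.82, 95% interval 0.08 to 1.55, adjusted p = 0.0728). Each would be called without Lipa-/- mouse 5 of its own time (1.02 and 1.07 at 34- and 12-weeks). Treated livers had 10.8, 4.95 and 5.37 CPM at 12-weeks and 7.65, 6.07 and 4.96 CPM at 34-weeks. Those of 34-weeks were 2.13-fold below untreated Lipa-/- livers (log2 fold change -1.09 ± 0.35 SE, adjusted p = 0.0183), a call lost without Lipa-/- mouse 4 (-0.93) or treated mouse 9 (-0.95). At 12-weeks the same comparison gave -0.59 and, without treated mouse 10, -1.06, which was called.

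Lpcat3 encodes the acyltransferase that places polyunsaturated fatty acids into membrane phospholipids, at chr6:124639765-124684440. WT livers had 74.0, 64.9 and 92.0 CPM at 12-weeks and 46.4, 80.4 and 109 CPM at 34-weeks. Untreated Lipa-/- livers gave 63.7, 59.5 and 67.5 CPM and 42.2, 49.4 and 58.7 CPM, and overlapped WT at both times. Their log2 differences, -0.28 (95% interval -1.17 to 0.61) and -0.65 (-1.54 to 0.24), did not pass. Treated livers of 12-weeks stood lowest, at 7.77, 36.6 and 37.1 CPM, while those of 34-weeks had 100.1, 55.5 and 106 CPM. At 12-weeks they were 2.82-fold below WT (log2 fold change -1.50 ± 0.43 SE, adjusted p = 0.0154) and 2.33-fold below untreated Lipa-/- livers (adjusted p = 0.0241). The first call was lost without WT mouse 3 (-1.35, adjusted p = 0.0632), the second without treated mouse 10 (-0.82) or Lipa-/- mouse 5 (-1.18). The second was also lost when edgeR was fitted to only the groups compared (-1.19, adjusted p = 0.0748).

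Soat1 had the largest fold of the 10 genes in Lipa-/- livers. It esterifies cholesterol in the endoplasmic reticulum, and its gene spans chr1:156252095-156303864 on the minus strand. WT livers had 1.45, 2.63 and 1.31 CPM at 12-weeks and 1.95, 3.27 and 3.00 CPM at 34-weeks. In Lipa-/- livers it was at 63.0, 62.9 and 59.2 CPM at 12-weeks and at 73.9, 65.6 and 49.4 CPM at 34-weeks. The lowest Lipa-/- liver was far above the highest WT liver. The fold was 34.1 at 12-weeks (log2 fold change 5.09 ± 0.34 SE, adjusted p = 2.96e-08) and 22.8 at 34-weeks (4.51 ± 0.33 SE, adjusted p = 7.45e-08). It was called in all 14 alternatives at each time, with values of 4.91 to 5.58 and 3.99 to 5.13. As for Abcg1, the marker sums of macrophages and of the 5 other cell types with higher sums moved with it, and their part was not tested.

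Treated livers held an intermediate level of Soat1. They had 8.65, 7.55 and 4.52 CPM at 12-weeks and 4.15, 5.76 and 7.48 CPM at 34-weeks, each above every WT liver of its time and below every untreated Lipa-/- liver. Against untreated Lipa-/- livers they were 8.94-fold lower at 12-weeks and 10.8-fold lower at 34-weeks (adjusted p = 2.06e-06 and 7.18e-07). Against WT they were 3.81-fold higher at 12-weeks (log2 fold change 1.93 ± 0.32 SE, adjusted p = 0.00198), which limma on TPM did not call (1.06, adjusted p = 0.139). At 34-weeks the log2 difference of 1.07 (95% interval 0.43 to 1.72) had an adjusted p of 0.351. Whether the difference itself changed with time was tested as an interaction and did not pass (-0.86, adjusted p = 0.159). The macrophage marker sums of treated livers also stood above WT at 12-weeks, with no overlap, and overlapped WT at 34-weeks.

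Soat2, the acyltransferase of hepatocytes that feeds cholesteryl ester into lipoproteins, lies at chr15:102058797-102071904 on the plus strand and did not follow Soat1. It stood at 31.9, 31.7 and 31.4 CPM in WT livers of 12-weeks and at 58.2, 32.1 and 44.6 CPM at 34-weeks. Lipa-/- livers had 31.5, 25.6 and 23.8 CPM and 17.5, 30.9 and 17.8 CPM. At 34-weeks all 3 were below WT, 2.04-fold on average (log2 fold change -1.03 ± 0.25 SE, adjusted p = 0.00315). That value sat at the fold threshold and was called in only 6 of 14 alternatives, over which it ranged from -1.35 to -0.36. It was -0.80 without WT mouse 1, -0.88 without Lipa-/- mouse 4 and -0.89 without Lipa-/- mouse 6. At 12-weeks the difference was -0.23 (95% interval -0.76 to 0.30), and its sign was the opposite one with total counts or limma on TPM (0.24 and 0.22). Treated livers had 38.1, 46.6 and 43.5 CPM at 12-weeks and 39.7, 24.9 and 32.3 CPM at 34-weeks. They differed from WT by 0.43 (-0.10 to 0.97) and -0.48 (-1.01 to 0.05), and from untreated Lipa-/- livers by 0.66 at 12-weeks, past p alone (adjusted p = 0.035). The sign of the last turned with total counts (-0.19) and limma on TPM (-0.46), and that of the 12-week difference from WT with limma on TPM (-0.24).

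Per transcript length, Soat1 was the minor form in WT livers and equalled or passed Soat2 in some Lipa-/- livers. The TPM of Soat1 was 0.0102 to 0.0745 times that of Soat2 in WT livers and 0.85 to 2.11 times in Lipa-/- livers. The WT ratios are imprecise, since Soat1 had only 25 to 83 reads in a WT liver. Its deposited gene length also ran from 1782 to 8149 bases between WT livers. The log2 ratio rose by 5.29 (exact permutation p = 0.005, adjusted p = 0.0133). Treated livers had ratios of 0.0448 to 0.112, 1.30 above WT on the log2 scale (exact permutation p = 0.04, adjusted p = 0.0533). That difference passed when counts replaced TPM (1.54, adjusted p = 0.01), and without WT mouse 2 of 12-weeks (1.48), treated mouse 11 of 34-weeks (1.47) or WT mouse 3 of 34-weeks (1.57).

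**Figure D3:**
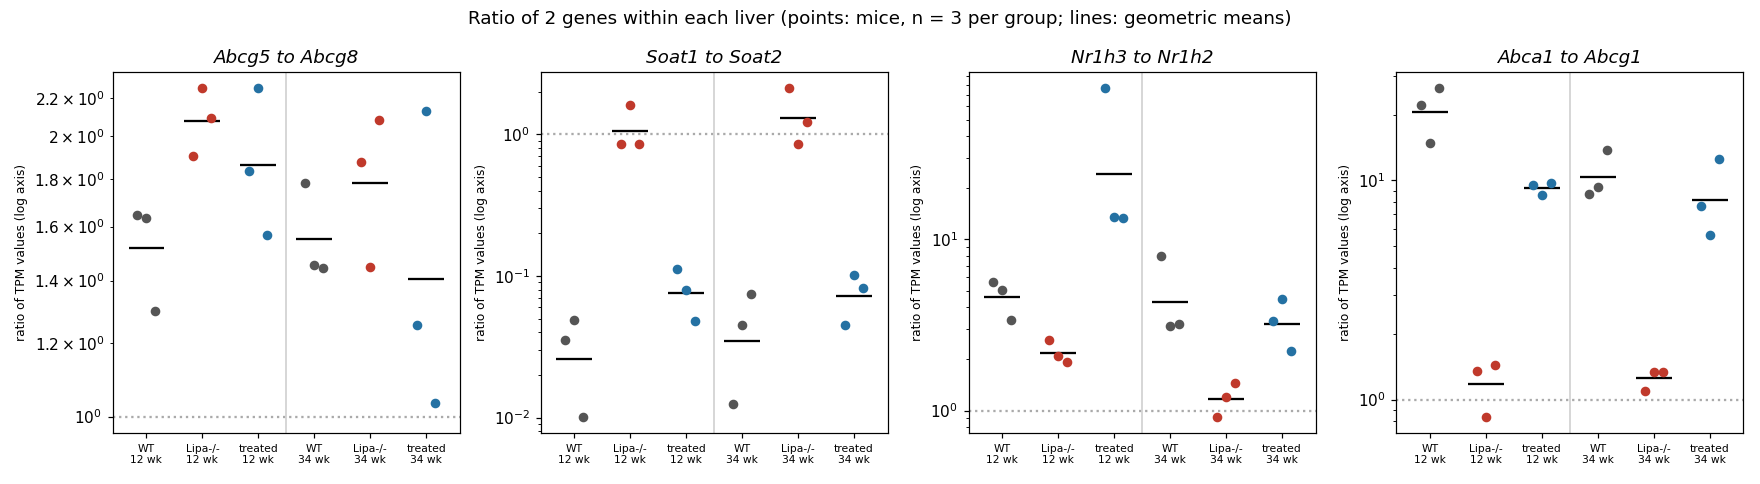
Ratio of TPM values of 2 genes within each liver, on log axes, for the 6 groups, with mice as points (n = 3 per group), geometric means as lines and a dotted line at 1. Soat1 to Soat2 was 0.85 to 2.11 in Lipa-/- livers (red) against 0.0102 to 0.0745 in WT livers, and Abca1 to Abcg1 was 0.835 to 1.44 against 8.71 to 26.4.

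In TPM, the order of levels in WT livers of 12-weeks was Nr1h3 (71.5 ± 7.69 TPM, SD, n = 3), Lpcat3 (37.7 ± 10.7), Abcg5 (16.6 ± 5.16), Nr1h2 (15.6 ± 2.68), Soat2 (13.7 ± 1.69), Abcg8 (11.4 ± 5.23), Abca1 (8.53 ± 3.99), Mylip (1.76 ± 0.17), Soat1 (0.41 ± 0.23) and Abcg1 (0.39 ± 0.083). The livers of neighbouring genes overlapped from Abcg5 down to Abca1, and for Soat1 and Abcg1, while Nr1h3, Lpcat3 and Mylip stood apart. In Lipa-/- livers of 12-weeks, Soat1 (17.8 ± 7.57 TPM) was the fifth highest, and its livers overlapped those of Soat2 (16.1 ± 2.40). Abcg1 (8.55 ± 2.22) was the ninth and overlapped Abca1 (9.88 ± 0.81). At 34-weeks the Lipa-/- order was again headed by Nr1h3 (47.8 ± 2.87) and Lpcat3 (43.2 ± 4.01), all neighbours overlapped, and Mylip (7.66 ± 2.87) was the lowest. Treated livers of 34-weeks had Soat1 at 1.31 ± 0.38 and Abcg1 at 1.28 ± 0.27 TPM, the bottom of the order as in WT livers of 34-weeks (1.01 ± 0.82 and 0.80 ± 0.40).

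**Figure D4:**
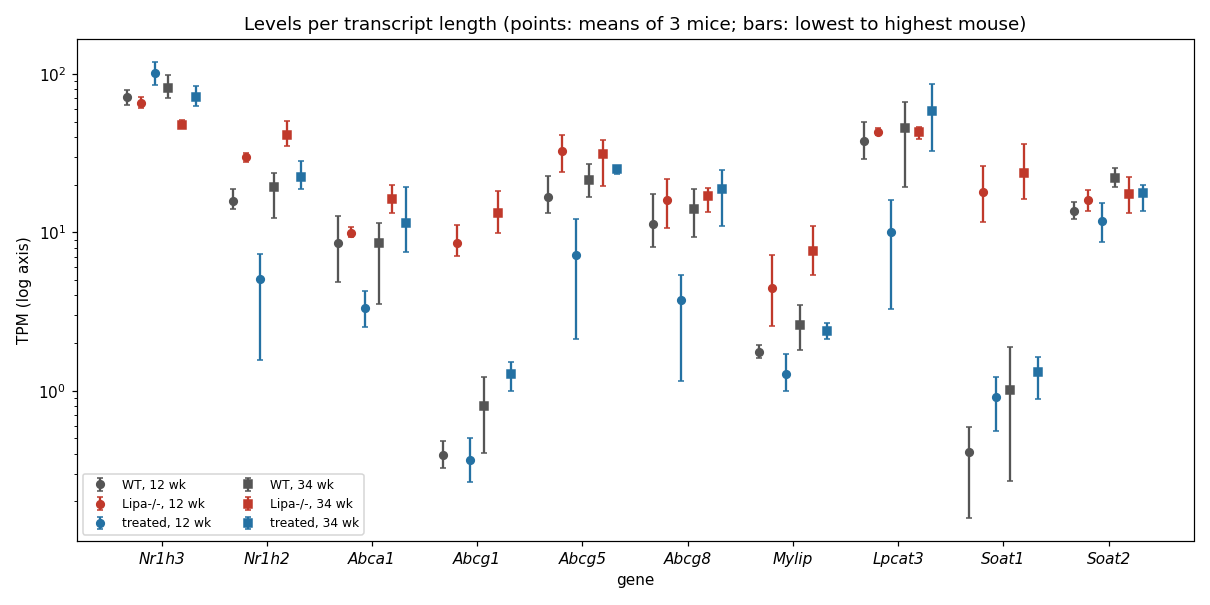
TPM of the 10 genes on a log axis, as means of 3 mice with bars from the lowest to the highest mouse, for WT (grey), Lipa-/- (red) and treated (blue) livers at 12-weeks (circles) and 34-weeks (squares). Soat1 and Abcg1 were at 0.41 and 0.39 TPM in WT livers of 12-weeks and at 17.8 and 8.55 TPM in Lipa-/- livers.

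Between the time points, 0 of the 10 genes were called in WT livers (0.323% of all genes) and 0 in Lipa-/- livers (0.495% of all genes), with 1 gene at an unadjusted p under 0.05 in each, and DESeq2 called 0 in both. In treated livers 4 were called (32% of all genes). Nr1h2 was 2.12-fold, Abcg8 2.40-fold and Lpcat3 3.20-fold higher at 34-weeks, and Nr1h3 was 2.92-fold lower (adjusted p = 0.00891, 0.018, 0.00589 and 0.00176). Without treated mouse 10 of 12-weeks, the log2 differences of Nr1h2 and Abcg8 were 0.74 and 0.93 and neither was called. Neither was called when edgeR was fitted to only the groups compared (1.10 and 1.29, adjusted p = 0.0634 and 0.0524). Abcg8 also lost its call without treated mouse 9 (1.12) or 11 (1.10) of 34-weeks, and Abcg5 (0.87, adjusted p = 0.0625) gained one without treated mouse 11 of 12-weeks (1.29). With total counts the median of all genes moved by 0.64, higher calls went from 54.7% to 87.8% of all calls, and those among the 10 went to 6 higher and 0 lower. In Lipa-/- livers higher calls went from 6.94% to 18.2% of all calls.

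As a test of whether a difference from WT itself changed with time, 0 of the 10 interactions passed for Lipa-/- livers (0.0619% of all genes), with 2 at an unadjusted p under 0.05 and 0 called by DESeq2. For treated livers 1 passed (18.4% of all genes), that of Nr1h3 (-1.57 ± 0.42 SE, adjusted p = 0.0267). It did not pass without treated mouse 10 of 12-weeks (-1.21, adjusted p = 0.0787), WT mouse 1 (-1.65, adjusted p = 0.0515) or 3 (-1.41, adjusted p = 0.0797) of 12-weeks, WT mouse 1 of 34-weeks (-1.11, adjusted p = 0.0778) or treated mouse 9 of 34-weeks (-1.43, adjusted p = 0.0756). The Nr1h3 interaction was also not called with total counts (-0.997, short of the fold threshold) or limma on TPM (-0.68, adjusted p = 0.0791). The same held for edgeR fitted to only the groups compared (-1.46, adjusted p = 0.0694). With total counts the share of higher calls over all genes went from 46.6% to 81.3%.

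Genes whose pattern over the 18 livers was most like that of the rising members were named by the smallest root mean square difference of centred log2 CPM among 12598 genes. Closest to Abcg1 were Msn, which encodes the membrane-cytoskeleton linker moesin (0.28), Ssbp4 (0.29) and Adam15, a membrane metalloproteinase (0.30). Closest to Soat1 were Sirpa, the myeloid receptor for CD47 (0.30), Trpv2, a cation channel (0.32), and Slc37a2, a sugar-phosphate carrier of macrophages (0.34). Abcg1 and Soat1 differed from each other by 0.66 on this measure.

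Further LXR targets went in both directions in Lipa-/- livers. Of 14 such genes, 4 were higher and 3 lower at 12-weeks (29.3% of all genes called) and 3 were higher and 7 lower at 34-weeks (36.3%), with a median log2 fold change of -0.07 and -1.12 beside 0.02 and -0.03 over all tested genes. Lpl, the lipase of vessel walls and macrophages, rose 36.6-fold and 40.0-fold, and Scd2, a fatty acid desaturase that is low in normal adult liver, rose 16.8-fold and 13.3-fold. Fasn, the fatty acid synthase, fell 3.38-fold and 7.77-fold, and Mlxipl, the carbohydrate-responsive factor ChREBP of hepatocytes, fell 3.55-fold and 5.10-fold.

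Enzymes that make or clear oxysterols, the ligands of LXR, were likewise split, with 2 of 7 higher and 3 lower at 12-weeks (29.3% of all genes called) and 2 higher and 4 lower at 34-weeks (36.3%). Ch25h, which makes 25-hydroxycholesterol, rose 5.89-fold and 14.2-fold. Sult2b1, which sulphates cholesterol and oxysterols, rose 9.10-fold and 14.3-fold. Cyp7b1, which hydroxylates oxysterols on the way to bile acids, fell 41.2-fold and 14.6-fold, while Hsd3b7, a later enzyme of that route, fell 3.19-fold and 5.86-fold. Cyp46a1, the 24-hydroxylase, fell 6.85-fold at 34-weeks, and its 12-week log2 difference of -0.93 did not pass (adjusted p = 0.381).

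Of 7 genes of HDL formation and uptake, 0 were higher at either time, and 2 were lower at 12-weeks and 5 at 34-weeks, with a median log2 fold change of -0.68 and -1.38 beside 0.02 and -0.03 over all genes and 29.3% and 36.3% of all genes called. The hepatocyte markers, of which 2 and 4 of 7 were lower, had medians of -0.78 and -1.10, and their part was not tested. Lipg and Lipc, the endothelial and hepatic lipases that act on HDL, fell 5.30-fold and 4.62-fold at 12-weeks and 19.6-fold and 10.3-fold at 34-weeks. Among the receptors that Mylip marks for breakdown, Lrp8 was the 1 of 3 called higher, with log2 fold changes of 7.38 ± 1.41 and 4.35 ± 0.89 SE. The median log2 fold change of the 3 was 1.15 at 12-weeks and -1.04 at 34-weeks (29.3% and 36.3% of all genes called).

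For cholesteryl ester hydrolysis and sterol transport out of endolysosomes, 3 of 11 genes were higher and 4 lower at each time, where 29.3% and 36.3% of all genes were called. Gramd1b, which carries plasma membrane cholesterol to the endoplasmic reticulum, rose 10.2-fold and 17.1-fold, and Npc2, the soluble cholesterol carrier of lysosomes, rose 4.57-fold and 3.31-fold. Besides Lipa itself, Ces1d, a hepatocyte carboxylesterase, fell 4.75-fold and 9.84-fold. Among 11 RXR partners and coregulators, only Rxrg was called at either time, 2.03-fold and 6.43-fold lower. Of 6 tested lysophospholipid acyltransferases other than Lpcat3, 3 were higher at each time and 0 and 1 were lower: Lpcat2 rose 11.8-fold and 5.42-fold, Lpcat4 rose 5.35-fold and 4.17-fold, Lpcat1 rose 3.56-fold and 4.36-fold, and Lpgat1 fell 2.14-fold at 34-weeks, with a 12-week log2 difference of -0.43 (adjusted p = 0.308).

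**Figure D5:**
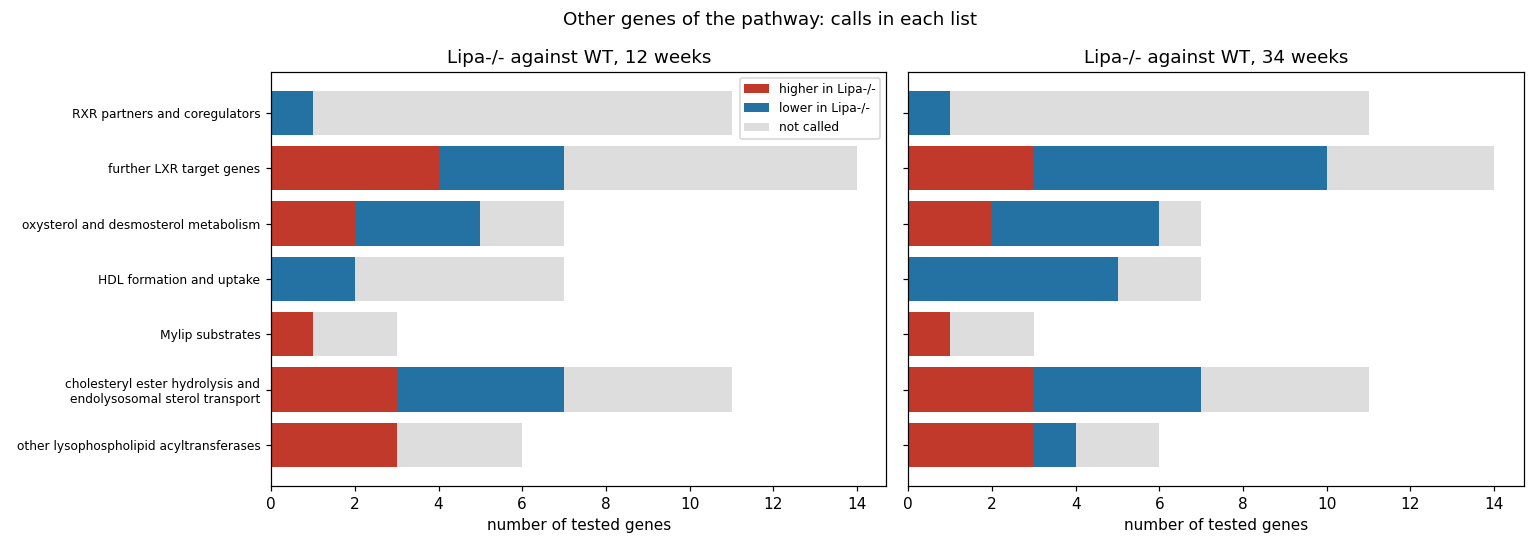
Number of tested genes of each pathway list that were called higher (red), called lower (blue) or not called (grey) in Lipa-/- against WT livers at 12-weeks and 34-weeks. The list of further LXR targets went from 4 higher and 3 lower to 3 higher and 7 lower, and the HDL list had no higher call at either time.

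In treated livers of 34-weeks, the 1 call against WT in these lists was Lipa itself, which was lower. At 12-weeks, where 25.5% of all genes were called, 4 of 14 further LXR targets were higher and 3 lower in treated than in WT livers, 2 of 7 oxysterol genes, 1 of 3 Mylip substrates and 3 of 11 RXR partners or coregulators were lower, 2 of 6 acyltransferases were higher, and of 11 genes of ester hydrolysis and sterol transport 1 gene was higher and 2 were lower.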

How the data were processed

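Liver RNA of 18 mice was measured by polyA-selected paired-end sequencing. Per the paper's methods, the authors assigned reads with Salmon to Ensembl transcripts of GRCm39 and summed them with tximport. The deposited estimated counts are not normalized (19.4% are not whole), Salmon's TPM values, deposited beside them, are relative to each mouse's own total, and the deposited gene lengths are in bases. The submitters' processing notes name R 4.3.0 and DESeq2 1.40.1. The authors' deposited table of DESeq2 comparisons (log2 fold changes and p-values) was not used.

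Counts were rounded, genes with over 100 reads in all were kept, and edgeR 4.0.16 in R 4.3.3 fitted 6 group means with TMM factors (11 contrasts, two-sided, Benjamini-Hochberg). The paper states that controls were littermates matched for age and sex. Labels do not say which mice shared a litter, so litter could not be fitted and p-values measure the spread between these mice. Reads that are PCR copies of 1 molecule are not independent, and their share was not measured here. Ratios of TPM within a liver were tested by exact permutation within time points in 8 tests, since 3 mice against 3 cannot go below p = 0.1. Promoters were read from the GRCm39 genome with GENCODE M39. Of those searched, that of Abca1 is printed, and 1 item is not reported here.

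The members and lists were chosen with earlier results of these data known. Named genes were the 10 members, up to 2 called genes of each list per direction in Lipa-/- against WT at each time, and the 3 genes most alike to a member called at both times (mean of at least 1 CPM, prior count 2). Alternatives were DESeq2 1.42.0 and edgeR with length offsets, upper quartile factors, total counts, no filter, filterByExpr, only the groups compared, limma 3.58.1 on log2(TPM + 0.1), adjusted p alone, ratios of counts, a replicate block, and each mouse left out. The main edgeR fit, DESeq2 without length offsets and the permutation test were tested on simulated data, and the other methods were not.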

Additional observations from a re-analysis of the deposited data

Results flagged for a closer look

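Nr1h3 was flagged because its difference between treated Lipa-/- and WT livers changed between the time points in a test of that change itself. The interaction was -1.57 on the log2 scale (edgeR quasi-likelihood test, adjusted p = 0.0267), from a treated-to-WT difference of 1.17 at 12-weeks to one of -0.40 at 34-weeks. In CPM, treated livers lay at 403, 233 and 247 against 100.5 to 148 in WT at 12-weeks, and at 79.6 to 119.8 against 96.6 to 206 at 34-weeks. It was called in 12 of 20 alternatives and ranged from -1.76 to -0.68. The same interaction was called for 18.4% of all tested genes, so a change of this kind was not particular to Nr1h3. The time points carry different study codes, so time and code cannot be told apart.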

How the results depend on the processing

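Of 299 alternative values for the counts of called genes and the ratios, 258 kept their direction and side of the threshold or moved little. The number that reversed was 0, but only a ratio could reverse, since a count of called genes has no direction. Of 1680 alternatives for single genes, 1579 stayed on their side of the threshold, 54 lost and 47 gained a call. The sign differed in 86, all of them of values that were not called. The cause of each change was not tested. Treated against WT at 12-weeks (3 calls) gave 5 with total counts, 5 with limma on TPM, and 1 to 4 with a mouse left out (1 without WT mouse 3). Treated against untreated Lipa-/- livers gave 4 in place of 7 at 12-weeks when only those groups were fitted, and at 34-weeks 2 to 4 with a mouse left out (2 without Lipa-/- mouse 4). Treated livers between times (4 calls) gave 2 with only those groups and 2 to 5 with a mouse left out (2 without treated mouse 10 of 12-weeks). The treated interaction with time (1 call) gave 3 with DESeq2, 2 with length offsets, 2 with total counts, 0 with only those groups, 3 with limma on TPM, and 0 to 3 with a mouse left out. The log2 ratio of Abcg5 to Abcg8 (Lipa-/- against WT, 0.33) was 0.23 from counts and 0.26 to 0.41 with a mouse left out. That of Soat1 to Soat2 (treated against WT, 1.30) was 1.54 from counts and 0.97 to 1.57, and that of Abca1 to Abcg1 (treated against WT, -0.75) ranged from -0.93 to -0.63.

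Mice of different times share only a number: same-numbered mice had correlations of their deviations from -0.24 to 0.46 in WT and from -0.25 to -0.08 in treated livers. With the replicate block, treated livers between times gave 1 call among the 10 genes in place of 4 and 1622 among all genes in place of 4648, and WT livers 0 in place of 0 and 11 in place of 47. With 3 mice a group, a p that misses the threshold does not show that values were alike.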
